A study of Mus musculus with 30 samples.

Results

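Genes of the cell division cycle were followed in bone marrow–derived dendritic cells (BMDCs). A set of 40 named genes that are used in S phase or in mitosis was taken from the table of 43629 genes by Ensembl identifier, and all 40 were found. The rule lists the genes by name. They fall into 6 roles, with 3 genes of G1/S control, 10 of DNA replication, 4 of deoxynucleotide supply, 10 of the mitotic cyclins and kinases with Foxm1, 9 of the spindle, kinetochore and cytokinesis, and 4 of chromosome structure and mitotic exit.

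RNA was sequenced in 30 libraries from 10 numbered cultures, 5 from wild-type (WT) mice of strain C57BL/6J and 5 from mice of strain C57BL/6N without Cacnb3 (Cacnb3-/-), the gene of a regulatory subunit of voltage-gated calcium channels. The substrain and the genotype cannot be told apart in this design. By the study's methods the mice were 6 to 12 weeks old. Bone marrow was grown with GM-CSF for 6 days before stimulation, ATP was given at 500 µM for 30 min, and by the labels cells were taken at once or 24 h later, while the paper places the earlier collection some time after the pulse. Each culture gave 3 libraries, told apart by the ending of their name (ctrl, 0p5h and 24h), so that each of the 6 groups holds 5 libraries. For the 24h libraries the name and the treatment label say the same. For the other libraries they conflict, since ctrl libraries carry the label of 30 min of ATP and 0p5h libraries that of vehicle, and which of them were unstimulated cannot be told from these sources. Groups are therefore called by the endings ctrl, 0p5h and 24h, and a comparison of 24h with either is a comparison with cells without ATP under only 1 of the readings. The labels do not say whether a culture number stands for 1 mouse, so the p-values measure the spread between these cultures.

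Cells enter S phase when cyclin E with its kinase frees E2F factors, which switch on the genes for the MCM helicase, the sliding clamp and nucleotide synthesis. Cdk1, its cyclins and the spindle genes are held down in resting and G1 cells by the DREAM complex, and are turned on in G2 and mitosis by the MuvB core of that complex together with B-Myb and Foxm1. Dendritic cells differentiated from bone marrow progenitors mostly leave the cycle, while GM-CSF cultures keep some dividing precursors.

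Promoter sequences are shown for 7 genes because these are the genes, or the classes of gene, that the comparisons turn on. They were read from RefSeq promoter windows of GRCm38.p6, which run from 250 bases before to 50 bases after the transcription start. Of the 40 genes, 32 were matched there, with 34 promoters, and Ccne2, Mcm4, Gins2, Foxm1, Ccna2, Aurkb, Kif20a and Tpx2 were not matched. Each line gives the 150 bases before the start, 5′ to 3′ on the gene's strand. Capitals mark matches on either strand to the E2F letters TTCCCGC or their variants TTGGCGC, also TTCGCGC, also TTGCCGC, to the cell cycle homology region (CHR) letters TTTGAA or their variant TTCGAA, and to the CCAAT box. Neighbouring matches can overlap.
Tk1, chr11:117826015-117826164, minus strand: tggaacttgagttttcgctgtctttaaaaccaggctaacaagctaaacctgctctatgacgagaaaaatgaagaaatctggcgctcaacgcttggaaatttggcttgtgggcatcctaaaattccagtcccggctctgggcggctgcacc
Mcm5, chr8:75109359-75109508, plus strand: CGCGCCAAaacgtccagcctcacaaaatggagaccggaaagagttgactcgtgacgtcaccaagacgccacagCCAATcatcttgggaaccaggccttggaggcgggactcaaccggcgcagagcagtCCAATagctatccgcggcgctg
Mcm6, chr1:128359706-128359855, minus strand: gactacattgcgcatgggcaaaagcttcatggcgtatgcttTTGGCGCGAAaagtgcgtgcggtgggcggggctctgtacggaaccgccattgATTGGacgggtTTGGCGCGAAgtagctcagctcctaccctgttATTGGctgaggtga
E2f1, chr2:154569427-154569576, minus strand: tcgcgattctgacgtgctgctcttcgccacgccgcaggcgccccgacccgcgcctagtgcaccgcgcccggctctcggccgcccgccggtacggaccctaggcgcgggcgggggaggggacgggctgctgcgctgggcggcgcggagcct
Bub1, chr2:127831860-127832009, minus strand: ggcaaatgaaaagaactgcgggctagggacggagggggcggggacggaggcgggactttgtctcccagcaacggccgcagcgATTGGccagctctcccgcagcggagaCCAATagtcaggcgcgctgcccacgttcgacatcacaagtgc
Cdk1, chr10:69352913-69353062, minus strand: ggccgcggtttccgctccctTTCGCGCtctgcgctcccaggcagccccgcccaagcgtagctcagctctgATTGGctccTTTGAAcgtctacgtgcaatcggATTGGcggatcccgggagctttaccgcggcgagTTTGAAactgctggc
Top2a, chr11:99024190-99024339, minus strand: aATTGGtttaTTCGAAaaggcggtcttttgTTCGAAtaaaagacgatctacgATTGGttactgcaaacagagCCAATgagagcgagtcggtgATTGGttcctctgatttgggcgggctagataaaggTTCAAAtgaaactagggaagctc

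Within the whole window of 300 bases, the E2F letters were found in 80.0% of the 10 replication promoters and in 9.6% of all 32851 promoters of the table. The CHR letters stood in 100% of the 4 promoters of chromosome structure and mitotic exit, in 85.7% of the 7 of mitotic cyclins and kinases and in 19.2% of all. CCAAT was found in 79.4% of the 34 promoters of these genes and in 37.4% of all, and CCAAT together with CHR in 47.1% and 7.5%. The printed bases of Mcm6 hold 4 E2F matches and those of Top2a 3 CHR and 4 CCAAT matches. The windows of Tk1 and E2f1 hold no match to any of these letters. In the gene models used for counting, E2f1 starts at base 154569892, so its whole printed stretch lies inside the gene. Tk1 starts there at base 117826092, within its printed stretch. The lack of matches for E2f1 therefore says nothing about the bases before that start. A match is a description of the letters and not a measured binding site.

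Total counts ranged from 8237393 to 32164225 per library. Mitochondrial genes took 0.707 to 5.61% of counts in WT and 2.16 to 16.5% in Cacnb3-/- libraries. The lane named in the column headers was lane 1, 2 or 3 for 7, 5 and 3 WT libraries and for 3, 5 and 7 Cacnb3-/- libraries. Cacnb3 was counted in every Cacnb3-/- library, at 573 to 1331 CPM (counts scaled to a common library total after normalization by the trimmed mean of M values, TMM), and in WT libraries at 1035 to 2143 CPM. The genotype labels are therefore not checked by a loss of its counts, and a Cacnb3-/- group is named by its label. In the 24h libraries Cacnb3 was at 1669 ± 366 CPM (SD, n = 5) in WT and 973 ± 277 CPM in Cacnb3-/-, without overlap (log2 difference -0.77, SE 0.23, edgeR adjusted p = 0.0518). Of the dendritic cell markers, 10 of 10 were counted in each group, with a summed level of 16355 to 30336 CPM in WT and 11506 to 27983 CPM in Cacnb3-/- libraries. Of the markers of granulocyte-monocyte progenitors, which divide, 9 of 9 were counted in each group, with a summed level of 85.7 to 196 CPM in WT and 111 to 212 CPM in Cacnb3-/- libraries. The macrophage-like markers, 11 of 11 counted, summed to 1156 to 3742 CPM in WT and 1103 to 5251 CPM in Cacnb3-/- libraries. Among all marker genes, Cd14, a co-receptor for lipopolysaccharide, was the only one called in a comparison without the block, at 1061 ± 439 CPM in WT 0p5h and 189 ± 103 CPM in WT 24h libraries (log2 difference -2.48, SE 0.51, edgeR adjusted p = 0.0396), and it missed the threshold without p974s846, p974s850, p974s855 or p974s856 (0.196 at most). Markers of mast cells and basophils summed to at most 7.29 CPM, of erythroid cells to at most 1.17 and of lymphocytes to at most 4.19 CPM in a library. Of the progenitor sum, most was Kit, at a median of 119 CPM, while the defining genes Mpo, Elane and Ctsg had medians of 0.197, 0.192 and 0.140 CPM. In RNA from whole cultures, fewer cells of a type and less RNA per cell cannot be told apart.

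The cell cycle genes were expressed at low levels, and the replication genes were the highest among them. Per kilobase of exon, the median gene of the 40 was at 0.963 CPM, against 4.67 CPM for all 13755 genes that passed the count filter over the 30 libraries. Only 6 of the 40 lay above that general median. These were Mcm6 (18.5 CPM per kb), Mcm3 (12.5) and Mcm4 (9.17), subunits of the MCM2-7 helicase that unwinds DNA, Pcna (15.1), the sliding clamp of the DNA polymerases, E2f1 (6.78), a transcription factor of S phase genes, and Rrm1 (6.60), the large subunit of ribonucleotide reductase. The small subunit, Rrm2, was at 0.524 CPM per kb.

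By role, the median was 3.95 CPM per kb for replication, 2.60 for deoxynucleotide supply, 1.31 for G1/S control, 0.710 for chromosome structure and mitotic exit, 0.644 for the mitotic cyclins and kinases and 0.259 for the spindle genes. Cdk1, the kinase of mitotic entry, was at 2.24 CPM per kb, the highest of the mitotic cyclins and kinases, and its partner Ccnb1 at 0.0613, the lowest. Between them lay the checkpoint kinases Bub1 (2.12) and Bub1b (0.956), the Aurora kinases Aurka (0.985) and Aurkb (0.765), the cyclins Ccnb2 (0.522) and Ccna2 (0.342), Plk1 (0.477) and the transcription factor Foxm1 (0.154). Of the spindle genes, Cdca8 (1.64 CPM per kb), a subunit of the chromosomal passenger complex, was the highest, followed by Tpx2 (0.970), Nusap1 (0.718) and Birc5 (0.477), and the motors Kif23, Kif20a, Cenpe and Kif11 lay between 0.171 and 0.259. Mki67, the gene of the proliferation antigen Ki-67, was at 0.686 and Top2a, the topoisomerase that untangles sister chromatids, at 0.735 CPM per kb. The lowest of all was Cenpf, a kinetochore protein, at 0.0279 CPM per kb. In 14 of the 40 genes at least 1 library had under 10 reads, and Ccnb1 and Cenpf had a library with none. Reads of Ccnb1, Ccnb2, Pcna, Tyms and Aurkb could be split with copies, since 1 to 2 pseudogenes are named after each. Exons of Gins2, Kif20a, Ube2c, Ccne2, Ccna2 and Mcm7 share 67.3, 33.2, 22.8, 17.4, 14.6 and 12.6% of their bases with neighbouring genes. Their levels per kilobase are over all exon bases, shared ones included, and would be too low if reads in shared bases were not counted.

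The cyclins E, which start S phase, were at 1.31 (Ccne1) and 1.08 CPM per kb (Ccne2). Of the other replication genes, Mcm7 was at 4.38, Mcm5 at 3.53 and Mcm2 at 3.25 CPM per kb, Gins2 at 1.93, and Uhrf1 at 1.49. Cdc6, which loads the helicase at origins, was the lowest of its role at 0.101 CPM per kb. Of the deoxynucleotide genes, Tk1 was at 3.63 and Tyms at 1.57 CPM per kb. Of the 13 comparisons made, Ccnb1 had too few reads to be tested in 12, Cenpf in 6, Cdc6 in 5, and Ccnb2 and Cdc20 in 1 each.

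**Figure D1:**
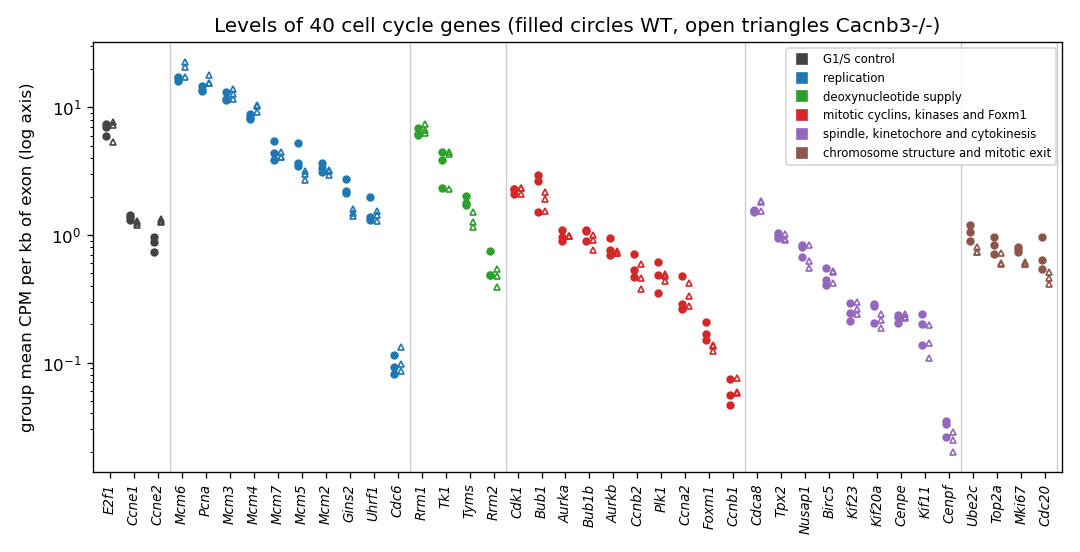
Mean level of each of the 40 genes in the 6 groups, as CPM per kilobase of exon on a log axis, with genes grouped by role and ordered by level. Filled circles are the 3 WT groups and open triangles the 3 Cacnb3-/- groups. Replication genes reach 18.5 CPM per kb (Mcm6) averaged over the libraries and Cenpf lies at 0.0279.

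A score was formed in each library as the mean of log2(CPM + 0.5) over the 40 genes. It differed more between cultures than between the library sets. In WT the culture means ran from 2.05 (p974s846) to 2.46 (p974s864), and in Cacnb3-/- from 2.04 (p974s843) to 2.42 (p974s865). In WT libraries the score was 2.28 ± 0.14 (SD, n = 5) for ctrl, 2.27 ± 0.14 for 0p5h and 2.43 ± 0.21 for 24h. In Cacnb3-/- libraries it was 2.22 ± 0.15, 2.23 ± 0.16 and 2.25 ± 0.21 in the same order. The ranges of the 6 groups overlapped.

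Within a culture the score was higher in the 24h than in the ctrl library in 5 of 5 WT cultures, by 0.03 to 0.23, and in 3 of 5 Cacnb3-/- cultures, where the differences ran from -0.05 to 0.12. Against the 0p5h library it was likewise higher in 5 of 5 WT cultures, by 0.03 to 0.24, and in 3 of 5 Cacnb3-/- cultures, by -0.04 to 0.09. From ctrl to 0p5h it was higher in 1 of 5 WT and 3 of 5 Cacnb3-/- cultures. WT culture p974s846 had the smallest difference between 24h and ctrl in WT (0.03). The Cacnb3-/- cultures with a lower score at 24h than at ctrl, p974s843 and p974s853, had the highest mitochondrial shares among the 24h libraries, 16.5% and 13.6%, and the part of RNA quality in the score was not tested.

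Markers of mature granulocytes, 10 of 10 counted in each group with none at 0 in a library, summed to 190 to 642 CPM (median 324) in WT ctrl, 226 to 512 (324) in WT 0p5h and 199 to 831 CPM (523) in WT 24h libraries. In Cacnb3-/- libraries the ranges were 305 to 556 (median 499), 382 to 582 (427) and 433 to 831 CPM (534) in the same order. Mature granulocytes do not divide, but whether the sum stands for mature cells was not tested. Its highest genes were S100a9, S100a8 and Mmp8, with medians of 184, 82.6 and 64.3 CPM, while Ly6g and Cxcr2 had medians of 2.05 and 3.07 CPM. The part of this sum in the score was not tested either.

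**Figure D2:**
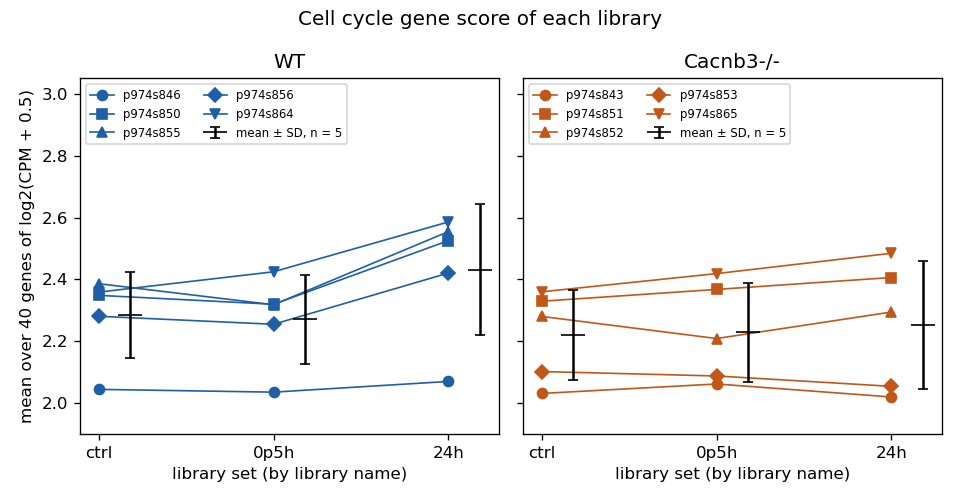
Score of each library, the mean over the 40 genes of log2(CPM + 0.5), by library set on the x axis, for 5 WT cultures (left) and 5 Cacnb3-/- cultures (right). Lines join the libraries of a culture, and black bars are the group mean ± SD. The 5 WT lines end higher at 24h than at ctrl, while the lines of the Cacnb3-/- cultures go both ways.

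The roles did not move alike. The deoxynucleotide supply genes had a mean log2 level that was lower in 0p5h than in ctrl in 5 of 5 WT cultures (mean difference -0.19 ± 0.12, SD) and in 3 of 5 Cacnb3-/- cultures (-0.11 ± 0.18), and higher in 24h than in 0p5h in 5 of 5 cultures of each genotype (0.45 ± 0.08 and 0.34 ± 0.19). For the replication genes the difference between 24h and ctrl was 0.23 ± 0.16 in WT, with 5 of 5 cultures higher, and -0.00 ± 0.18 in Cacnb3-/-, with 1 of 5 higher. The G1/S genes were lower in 24h than in 0p5h in 5 of 5 WT and 4 of 5 Cacnb3-/- cultures (-0.16 ± 0.16 and -0.15 ± 0.13). These differences over a role are descriptions, without a test.

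The comparisons of library sets ask how the genes differed between the sets within each genotype. Which of the earlier sets had no ATP is not settled. No label names a vehicle library taken at the latest time, so ATP and longer culture cannot be told apart there. Genes were tested with edgeR's quasi-likelihood test over the whole table, with Benjamini-Hochberg adjustment. A gene passed at an adjusted p under 0.05 and was called when it also differed at least 2-fold. Counts at an unadjusted p under 0.05 are given without the share of all genes, and do not set the members apart from other genes. Since libraries of the same culture deviated together, each comparison was also fitted with the culture number as a block, and that value is given where it changes the result. The 3 comparisons within a genotype share libraries and are not independent of each other.

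The change that stood out was in Tk1, thymidine kinase 1, the salvage enzyme that phosphorylates thymidine and whose level follows S phase. In the WT cultures p974s846, p974s850, p974s855, p974s856 and p974s864, Tk1 was at 17.8, 31.1, 11.2, 12.5 and 27.1 CPM in ctrl, at 9.96, 17.9, 5.09, 8.15 and 19.5 CPM in 0p5h, and at 16, 28.1, 14.8, 18 and 39.9 CPM in 24h. In the cultures from Cacnb3-/- mice (p974s843, p974s851, p974s852, p974s853, p974s865) it was at 23.6, 23.9, 22.8, 27.4 and 18.4 CPM in ctrl, at 10.8, 11.6, 14.4, 13.3 and 9.82 CPM in 0p5h, and at 18, 21.8, 27.1, 16 and 29 CPM in 24h. The 0p5h library was the lowest of its culture in 10 of 10 cultures. In Cacnb3-/- the 0p5h values did not overlap with those of ctrl or 24h, while in WT, where ctrl values alone ran from 11.2 to 31.1 CPM, the groups overlapped.

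In Cacnb3-/- cultures Tk1 fell from ctrl to 0p5h by 0.97 on the log2 scale (SE 0.15, adjusted p = 0.0171, edgeR) and rose from 0p5h to 24h by 0.91 (SE 0.19, adjusted p = 0.0450, edgeR). Without 1 culture, the first adjusted p ranged from 0.0268 to 0.211 and missed the threshold without p974s843, p974s851 or p974s853, and the second ranged from 0.0825 to 0.286 and missed it whichever culture was left out. With the culture as a block, both differences in both genotypes passed, and each still passed in 5 of 5 fits that left out 1 culture and with the GC trend of each library taken out as well. From ctrl to 0p5h the blocked log2 differences were -0.75 in WT (SE 0.09, edgeR adjusted p = 0.000466) and -0.97 in Cacnb3-/- (SE 0.09, edgeR adjusted p = 0.000380). From 0p5h to 24h they were 1.005 in WT (SE 0.13, edgeR adjusted p = 0.00200) and 0.90 in Cacnb3-/- (SE 0.16, edgeR adjusted p = 0.00241). Without the block the WT values were -0.71 (SE 0.41, edgeR adjusted p = 0.9997) and 0.95 (SE 0.39, edgeR adjusted p = 0.376). Between 24h and ctrl, Tk1 differed by 0.24 in WT and -0.05 in Cacnb3-/- on the log2 scale and passed in neither. Of the exon bases of Tk1, 1.6% lie in exons of Afmid on the other strand.

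**Figure D3:**
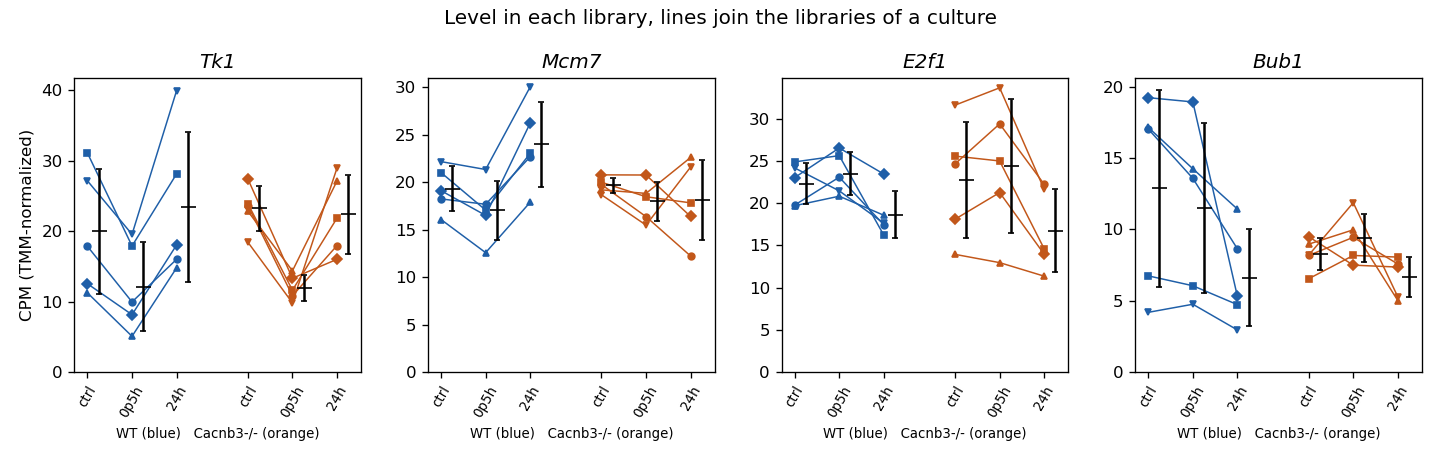
Level (CPM, TMM-normalized, axes from 0) of Tk1, Mcm7, E2f1 and Bub1 in each library, by library set, with WT in blue and Cacnb3-/- in orange. Lines join the libraries of a culture and black bars are the group mean ± SD (n = 5). Tk1 dips at 0p5h in each of the 10 cultures, and E2f1 is lower at 24h than at 0p5h in each of them.

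From ctrl to 0p5h, none of the 38 of the 40 genes tested was called in WT (0.176% of 13085 genes tested were called) or in Cacnb3-/- (38 tested, 0.290% of 12750). In WT none had an unadjusted p under 0.05 and in Cacnb3-/- only Tk1 had, and DESeq2 called none in either. Without a fold minimum, Tk1 was the 1 member that passed in Cacnb3-/- (0.384% of all genes tested). With the block, Tk1 was again the 1 that passed in WT (5.96% of all) and in Cacnb3-/- (2.35% of all). The median log2 difference was 0.04 in WT and 0.03 in Cacnb3-/-, against 0.01 and -0.01 over all genes tested.

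Mcm7, a helicase subunit, was lower in 0p5h than in ctrl in 10 of 10 cultures without passing in either genotype. Among these, Cacnb3-/- p974s853 was nearly level, at 20.79 CPM in ctrl and 20.77 CPM in 0p5h. In WT cultures, in the order given for Tk1, Mcm7 was at 17.7, 17.1, 12.6, 16.5 and 21.4 CPM in 0p5h and at 22.7, 23.1, 17.9, 26.2 and 30.1 CPM in 24h. Each culture was higher at 24h, while the groups overlapped. The log2 difference was 0.50 (SE 0.17, edgeR adjusted p = 0.271), and it passed with the block (0.50, SE 0.08, edgeR adjusted p = 0.00475) and in 5 of 5 blocked fits without 1 culture. In Cacnb3-/- cultures Mcm7 ranged from 15.5 to 20.8 CPM in 0p5h and from 12.2 to 22.6 CPM in 24h, with a log2 difference of 0.03 (edgeR adjusted p = 0.947 with the block).

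E2f1 was lower in 24h than in 0p5h in 10 of 10 cultures. In WT cultures it was at 23.1, 25.6, 20.8, 26.5 and 21.4 CPM in 0p5h and at 17.4, 16.2, 18.6, 23.4 and 17.6 CPM in 24h. In Cacnb3-/- cultures it was at 29.4, 25, 13, 21.2 and 33.6 CPM in 0p5h and at 22.2, 14.6, 11.4, 13.9 and 21.6 CPM in 24h. The groups overlapped in both genotypes, with a wider spread in Cacnb3-/-. Without the block the difference passed only in WT with the GC trend of each library removed (-0.39, SE 0.08, edgeR adjusted p = 0.0460). With the block the log2 difference was -0.52 in Cacnb3-/- (SE 0.11, edgeR adjusted p = 0.00637), and it passed in 5 of 5 fits without 1 culture, but with the GC trend also removed it was -0.24 and did not pass (SE 0.11, edgeR adjusted p = 0.141). In WT it was -0.33 (SE 0.09, edgeR adjusted p = 0.0474), and it missed the threshold without p974s846, p974s850, p974s855 or p974s864, where adjusted p reached 0.149, while with the GC trend also removed it was -0.38 (SE 0.07, edgeR adjusted p = 0.00831).

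Between 24h and 0p5h, none of the 37 genes tested was called in either genotype (0.639% of 12830 genes in WT, 0.660% of 12730 in Cacnb3-/-), while 9 in WT and 3 in Cacnb3-/- had an unadjusted p under 0.05. DESeq2 called none of them. Tk1 was the 1 that passed in Cacnb3-/- (0.880% of all). With the block, 6 passed in WT, where 11.3% of all genes did. These were Mcm7, Uhrf1, Tk1 and Plk1, which were higher in 24h, and E2f1 and Bub1, which were lower. Tk1 was also past 2-fold, as were 1.78% of all genes in that fit, and was just short of it at 0.97 with the GC trend also removed. In Cacnb3-/-, 5 passed with the block (28.6% of all), with Tk1, Kif11 and Nusap1 higher and E2f1 and Mcm6 lower. The share in WT, 6 of 37, was above that of all genes, and the share in Cacnb3-/-, 5 of 37, was below it. Neither difference in share was tested. With the GC trend also removed, 10 of 37 passed in WT (15.7% of all), with Ccna2, Rrm1, Mcm5 and Gins2 added, all higher. In Cacnb3-/-, 3 of 37 passed (24.1% of all), which were Tk1, Mcm6 and Bub1. The median log2 difference of the 37 genes was 0.20 in WT and 0.11 in Cacnb3-/-, against 0.01 and -0.00 over all genes, and 29 and 26 of them were higher in 24h.

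Bub1, a kinase of the spindle checkpoint, was lower at 24h, while 7 of the 9 tested mitotic cyclins and kinases were higher in 24h than in ctrl in WT. In WT cultures, in the same order, it was at 17, 6.75, 17.2, 19.2 and 4.19 CPM in ctrl, at 13.6, 6.06, 14.3, 18.9 and 4.76 CPM in 0p5h, and at 8.64, 4.73, 11.4, 5.31 and 2.96 CPM in 24h. The 24h library was the lowest in each WT culture, although cultures p974s850 and p974s864 were low throughout and the groups overlapped. With the block, the log2 difference was -0.88 between 24h and ctrl (SE 0.19, edgeR adjusted p = 0.0278) and -0.75 between 24h and 0p5h (SE 0.20, edgeR adjusted p = 0.0443). The first missed the threshold without p974s846 or p974s855, with an adjusted p of up to 0.121, and the second passed only without p974s856 (0.0205). In Cacnb3-/- cultures Bub1 lay between 5.02 and 8.07 CPM in 24h and between 7.50 and 11.9 CPM in 0p5h, lower at 24h in 5 of 5 cultures, and did not pass (blocked adjusted p = 0.0699, edgeR) unless the GC trend was also removed (-0.79, SE 0.14, edgeR adjusted p = 0.00300).

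**Figure D4:**
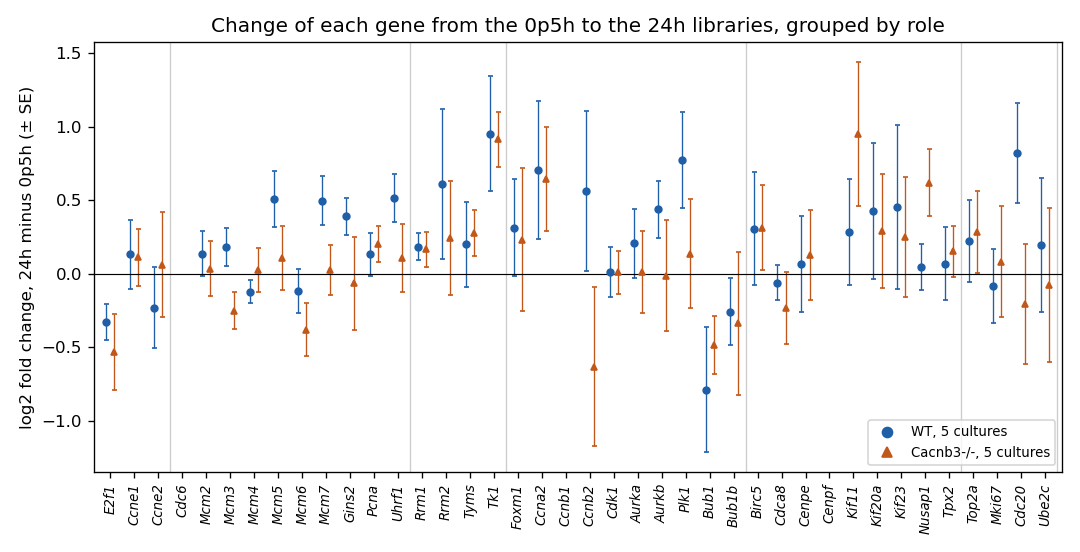
Log2 fold change of each gene from the 0p5h to the 24h libraries, with its SE, in WT (blue circles) and Cacnb3-/- (orange triangles), grouped by role and fitted without a block on 5 cultures each. Cdc6, Ccnb1 and Cenpf were not tested and have no point. Tk1 lies near 1 in both genotypes (0.95 and 0.91), and E2f1 and Bub1 lie below 0 in both.

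Between 24h and ctrl, none of 39 genes tested was called in WT (0.0152% of 13176 genes) and none of 36 in Cacnb3-/- (0% of 12452), with 3 and 1 at an unadjusted p under 0.05 and none called by DESeq2. With the block, 4 passed in WT (6.05% of all). Mcm5, a helicase subunit, was higher by 0.58 (SE 0.13, edgeR adjusted p = 0.0281), and so were Uhrf1, which recruits the maintenance methyltransferase to newly copied DNA, by 0.59 (SE 0.15, edgeR adjusted p = 0.0488) and Kif11, the motor that separates the spindle poles, by 0.81 (SE 0.21, edgeR adjusted p = 0.0491). The 4th was Bub1. Mcm5 missed the threshold without p974s846, p974s855 or p974s864 (edgeR adjusted p up to 0.0846), and Uhrf1 without any culture but p974s855 (up to 0.169). Kif11, with 9 to 45 reads in these WT libraries, missed it whichever culture was left out. Uhrf1 was at 4.93 to 6.91 CPM in the WT ctrl, 5.01 to 6.98 in the 0p5h and 7.21 to 10.3 CPM in the 24h libraries, so its 24h values overlapped with neither. Gins2 likewise did not overlap, with 7.26 to 9.74 CPM in the WT ctrl and 0p5h libraries and 9.75 to 12.7 CPM in 24h, and did not pass (blocked adjusted p = 0.0946 against ctrl, edgeR). In Cacnb3-/- the gene with the lowest p was Tyms, at 5.20 to 7.99 CPM in ctrl and 8.25 to 9.77 CPM in 24h (log2 difference 0.38, SE 0.16, edgeR adjusted p = 0.444). The median log2 difference between 24h and ctrl was 0.25 over the 39 genes in WT and 0.07 over the 36 in Cacnb3-/-, with -0.00 and -0.01 over all genes.

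The other blocked results of 24h against 0p5h did not pass in every fit that left out 1 culture. Plk1, a mitotic kinase with 6 to 32 reads in these WT libraries, was higher in WT by 0.78 (SE 0.21, edgeR adjusted p = 0.0420). It passed in 0 of 5 fits that left out 1 culture. Uhrf1 in WT (0.50, SE 0.14, edgeR adjusted p = 0.0486) passed only without p974s855. In Cacnb3-/-, Mcm6 was at 76.1 to 142 CPM in 0p5h and at 68.7 to 100.4 CPM in 24h, lower in 5 of 5 cultures. The difference was -0.36 (SE 0.09, edgeR adjusted p = 0.0130), and it missed the threshold without p974s851 or p974s852 (0.0505 at most). With the GC trend also removed it was -0.41 (SE 0.08, edgeR adjusted p = 0.00340). Nusap1, which bundles spindle microtubules, was higher in Cacnb3-/- by 0.60 (SE 0.19, edgeR adjusted p = 0.0331) and passed only without p974s865, and it missed the threshold with the GC trend also removed (0.114). Kif11 in Cacnb3-/- (0.88, SE 0.31, edgeR adjusted p = 0.0499) passed in none of the 3 such fits in which it was tested, nor with the GC trend also removed (0.107).

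Mki67, Top2a and Cdk1, often used as markers of dividing cells, passed in none of the comparisons, with the block or without. Mki67 was at 8.06 ± 1.63, 7.83 ± 1.21 and 7.37 ± 2.65 CPM in WT ctrl, 0p5h and 24h libraries (SD, n = 5) and at 6.01 ± 2.10, 6.00 ± 2.53 and 6.21 ± 3.23 CPM in Cacnb3-/-. Top2a was at 6.39 ± 1.52, 7.46 ± 1.08 and 8.70 ± 3.41 CPM in WT and at 5.31 ± 1.38, 5.39 ± 1.49 and 6.48 ± 2.13 CPM in Cacnb3-/-. Cdk1 was at 7.16 to 7.96 CPM on average in the WT groups and at 7.21 to 8.02 CPM in the Cacnb3-/- groups. The spread over the 5 cultures of a group was widest for Ube2c, the E2 enzyme of the anaphase-promoting complex, with a median coefficient of variation of 59.6%, and narrowest for Rrm1 (8.34%) and Mcm4 (8.86%), among the 32 genes for which it was computed.

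Whether the sets differed more in one genotype was tested as an interaction of genotype and set. None of the 39 genes tested was called in any of the 3 interactions, where 0%, 0% and 0% of 13465, 13536 and 13424 genes were. At an unadjusted p under 0.05 there were 0 for 0p5h against ctrl, 0 for 24h against ctrl and 2 for 24h against 0p5h, and DESeq2 called none. The 2 were Mcm3 (-0.44, SE 0.18, edgeR adjusted p = 0.680), whose difference was the lower in Cacnb3-/-, and Nusap1 (0.57, SE 0.26, edgeR adjusted p = 0.680). For Mcm7, which passed with the block in WT alone, the interaction was -0.48 (SE 0.24, edgeR adjusted p = 0.680, 0.109 with the block), and for Tk1 it was -0.05 (SE 0.45, edgeR adjusted p = 0.983) for the same sets. A difference between genotypes in the changes of these genes was not shown.

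The genotypes were compared within each library set and with the 3 libraries of a culture summed. No member was called (0% of 13022 genes tested in ctrl, 0% of 12806 in 0p5h, 0% of 12706 in 24h and 0% of 14833 summed). The tested members numbered 39, 37, 37 and 40, of which 3, 5, 4 and 4 reached an unadjusted p below 0.05. Without the share of all genes at that p, these counts are not a result about the members. DESeq2 called none of these. The median log2 difference, Cacnb3-/- minus WT, was -0.00, -0.04, -0.16 and -0.07, against 0.03, 0.02, 0.01 and 0.02 over all genes. In the 24h libraries 26 of 37 were lower in Cacnb3-/-.

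Gins2, a subunit of the GINS complex that completes the replicative helicase, had the smallest p among the 40 genes in 3 of these comparisons. In the 24h libraries it was at 11.9, 11.6, 9.75, 12.7 and 10.8 CPM in the WT cultures and at 2.66, 7.67, 5.10, 4.52 and 8.70 CPM in the Cacnb3-/- cultures, in the order used for Tk1. The groups did not overlap. The log2 difference was -0.94 (SE 0.26, edgeR adjusted p = 0.0515). That adjusted p was the lowest of all 12706 genes tested, and other genes shared it. Among them were Dnmt1, Pold1, Smc4, E2f4, Lin9 and Cdkn1a, which are outside the 40, so it does not set Gins2 apart. The Gins2 difference passed in DESeq2 (adjusted p = 0.00907), with all 30 libraries in one fit (0.00546) and without Cacnb3-/- p974s865 (0.00964). It also passed without the filter on low counts (0.0410), as did 1262 of 25806 genes. Without WT p974s864 it passed as well (0.0414), as did 2389 of 12781 genes. In the ctrl libraries Gins2 was at 8.64 to 9.74 CPM in WT and 5.35 to 8.28 CPM in Cacnb3-/-, again without overlap (-0.46, SE 0.15, edgeR adjusted p = 0.247). With libraries summed the log2 difference was -0.60 (SE 0.16, edgeR adjusted p = 0.127, DESeq2 adjusted p = 0.0162). Of the exon bases of Gins2, 67.3% lie in exons of Gse1 on the other strand. The counting set no strand, so reads in these shared bases cannot be assigned to 1 of the genes by strand. Whether they were left out or counted was not examined.

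Mcm5 was lower in Cacnb3-/- in the 24h libraries, at 6.65, 11.4, 12.5, 9.72 and 14.1 CPM against 13.3, 18.1, 14.7, 24.8 and 18.3 CPM in WT. The groups overlapped in culture p974s865 alone. The log2 difference was -0.69 (SE 0.22, edgeR adjusted p = 0.0561), and it passed in DESeq2 (0.0210). Mcm4, of the same helicase, was higher, at 40.04, 36.98, 39.96, 42.2 and 26.6 CPM against 31.2, 28.2, 28.97, 27.9 and 28.6 CPM in WT. It differed by 0.37 (SE 0.14, edgeR adjusted p = 0.0736), and by -0.00 with the GC trend of each library taken out. Cdc20, the activator of the anaphase-promoting complex, was at 0.133, 0.802, 0.704, 0.589 and 1.61 CPM against 0.823, 1.78, 1.84, 3.046 and 1.55 CPM in WT, on 1 to 45 reads a library, and differed by -1.07 (SE 0.46, edgeR adjusted p = 0.107).

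**Figure D5:**
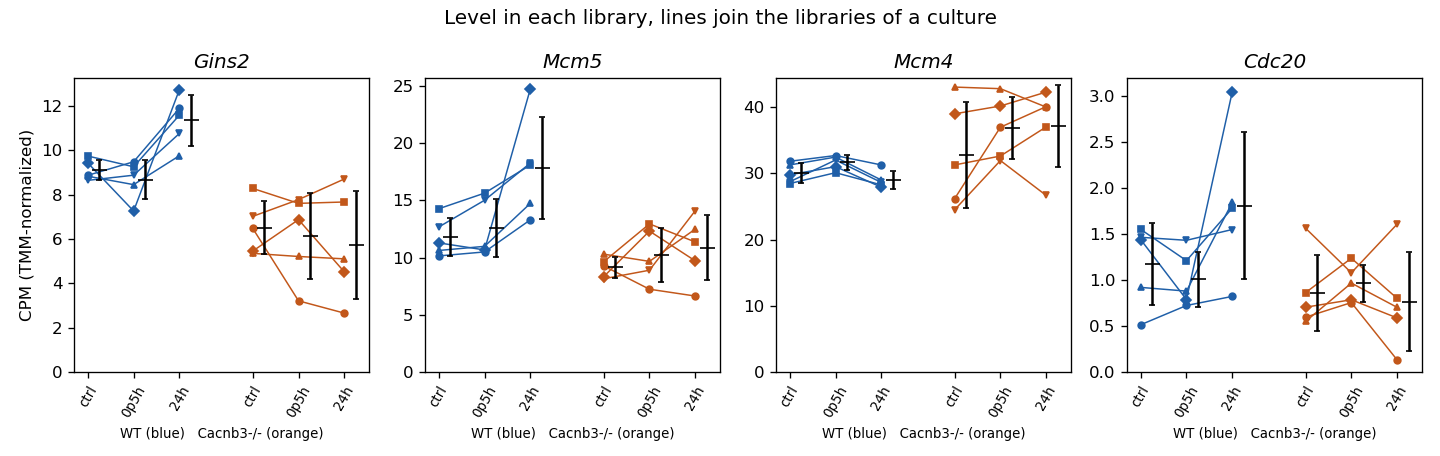
Level (CPM, TMM-normalized, axes from 0) of Gins2, Mcm5, Mcm4 and Cdc20 in each library, with WT in blue and Cacnb3-/- in orange and lines joining the libraries of a culture. Black bars are the group mean ± SD (n = 5). The Gins2 groups do not overlap at 24h, where the lowest WT culture is at 9.75 and the highest Cacnb3-/- culture at 8.70 CPM.

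The count of genes that passed in the 24h libraries depended on the fit for members and for all genes alike. With all 30 libraries in one fit, 5 members passed (Mcm5, Mcm7, Gins2 and Cdc20 lower and Mcm4 higher in Cacnb3-/-), of which Cdc20 was past 2-fold, as did 29% of 13755 genes. In DESeq2, Mcm5 and Gins2 passed, as did 13.1% of 25800 genes. Cacnb3-/- culture p974s865 had the lowest mitochondrial share of the Cacnb3-/- 24h libraries (3.21%). Without it, 5 passed (Ccne2 and Mcm4 higher, Cdc20, Mcm5 and Gins2 lower), as did 35.3% of 12785 genes. Of the 5, Ccne2 (1.04), Cdc20 (-1.55) and Gins2 (-1.13 on the log2 scale) were also called. The share of all genes past 2-fold in these fits is not given here. The calls therefore do not set the members apart. The summed dendritic cell markers in the 24h libraries were at 16355 to 28945 CPM (median 24627) in WT and at 11506 to 21030 CPM (median 12435) in Cacnb3-/-, and 1 of the 10 genes was higher and 9 lower in Cacnb3-/-, with none past the test. The part of these markers and of the mitochondrial share in the differences was not tested, and that of the substrain cannot be told apart from that of the genotype.

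In the 0p5h libraries Nusap1 was lower in Cacnb3-/-, at 1.89, 2.48, 2.61, 2.10 and 2.05 CPM against 3.14, 3.19, 3.39, 3.31 and 3.28 CPM in WT, without overlap (-0.54, SE 0.17, edgeR adjusted p = 0.251). In ctrl and 24h its groups overlapped. The other members that did not pass but had an unadjusted p under 0.05 were Mcm5 (-0.35) and Tyms (-0.55), thymidylate synthase, in ctrl, and Mcm6 (0.40), Ccne2 (0.54), Kif11 (-0.85) and Mcm4 (0.24) in 0p5h, all as log2 differences.

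Genes of the same pathway outside the 40 were read from 5 lists. Neither of the lists of 28 further replication genes and of 40 further mitosis genes held a called gene in a comparison without the block. In 24h against 0p5h with the block, 4 of 27 tested replication genes passed in WT, all higher, and 5 of 27 in Cacnb3-/-, all higher, where 11.3 and 28.6% of all genes passed. Hells, a chromatin remodeler of dividing cells, had the lowest p of this list in Cacnb3-/- (5.89 ± 2.28 to 11.2 ± 3.86 CPM, log2 difference 0.95, SE 0.15, edgeR adjusted p = 0.00132). Of the mitosis genes, 2 of 33 passed in WT, both lower, and 4 of 30 higher and 3 lower in Cacnb3-/-. The shares of all genes are the same as for the replication list. Cenpa, the centromeric histone, was among those lower in WT (100.3 ± 35.5 to 56.2 ± 19.4 CPM, -0.82, SE 0.11, edgeR adjusted p = 0.00238).

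All 7 genes of the inhibitors of cyclin-dependent kinases were tested, and none was called without the block. Cdkn1a, the gene of p21, an arrest gene induced by p53, moved in the direction opposite to Tk1. In WT cultures, in the order used for Tk1, it was at 724, 666, 821, 707 and 449 CPM in ctrl, at 956, 836, 989.7, 1064 and 608 CPM in 0p5h and at 780.0, 610.0, 706, 613 and 547 CPM in 24h. In Cacnb3-/- cultures it was at 474, 475, 471, 561 and 422 CPM in ctrl, at 690.2, 724, 657, 934 and 679 CPM in 0p5h and at 376, 502, 464, 501 and 452 CPM in 24h. The 0p5h library was the highest of its culture in 10 of 10 cultures, and in Cacnb3-/- it overlapped with neither other set.

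With the block, Cdkn1a was higher in 0p5h than in ctrl by 0.42 in WT (SE 0.05, edgeR adjusted p = 0.000863) and by 0.60 in Cacnb3-/- (SE 0.07, edgeR adjusted p = 0.00120), and lower in 24h than in 0p5h by -0.43 in WT (SE 0.10, edgeR adjusted p = 0.0215) and -0.67 in Cacnb3-/- (SE 0.09, edgeR adjusted p = 0.000756). Without it none of these passed, with an adjusted p of 0.0518 at the lowest. Cdkn2b, the gene of p15, was higher in 24h than in 0p5h with the block in both genotypes, by 0.60 (SE 0.09, edgeR adjusted p = 0.00360) and 0.71 (SE 0.11, edgeR adjusted p = 0.00131). Cdkn2a, the gene of p16 and p19Arf, was at 2.79 ± 0.41 CPM in WT ctrl and 6.10 ± 3.07 CPM in WT 24h libraries, without overlap (blocked log2 difference 1.05, SE 0.19, edgeR adjusted p = 0.0142). In Cacnb3-/- it was at 2.91 ± 1.65 CPM in ctrl and 3.75 ± 1.79 CPM in 24h libraries. Cdkn1b, the gene of p27, was at 159 ± 53.0 CPM in WT and 327 ± 119.96 CPM in Cacnb3-/- 24h libraries (1.05, SE 0.32, edgeR adjusted p = 0.0529). Like Cdkn1a, it was higher in 0p5h than in ctrl in 5 of 5 WT cultures (blocked log2 difference 0.35, SE 0.05, edgeR adjusted p = 0.00325). In Cacnb3-/- it was at 236 ± 80.2 CPM in ctrl and 306 ± 103 CPM in 0p5h libraries. Cdkn1c, Cdkn2c and Cdkn2d lay between 1.33 and 2.18, 14.1 and 19.8, and 9.97 and 12.2 CPM on average in the 6 groups. With the block, Cdkn2c was higher in WT 24h than in ctrl (0.51, SE 0.10, edgeR adjusted p = 0.0235) and than in 0p5h (0.29, SE 0.08, edgeR adjusted p = 0.0449).

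In the list of 9 G1 cyclins, their kinases and Myc, 1 passed with the block from ctrl to 0p5h in each genotype, where 5.96% of all genes in WT and 2.35% in Cacnb3-/- passed. This was Myc, a growth factor–induced transcription factor, which was higher by 0.80 in WT (SE 0.14, edgeR adjusted p = 0.00697) and 0.52 in Cacnb3-/- (SE 0.11, edgeR adjusted p = 0.0394). Of the RB, E2F and DREAM genes, 1 of 16 tested in WT and 1 of 15 in Cacnb3-/- passed in that comparison, against the same shares of all genes. It was E2f8 in both, a repressor of E2F targets, higher by 0.58 (SE 0.14, edgeR adjusted p = 0.0366) and 0.62 (SE 0.13, edgeR adjusted p = 0.0407). Rbl1, the gene of p107, was higher in 24h than in 0p5h in Cacnb3-/- with the block (0.66, SE 0.12, edgeR adjusted p = 0.00277). None of these passed without the block.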

How the data were processed

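RNA was sequenced in 30 libraries of bone marrow–derived dendritic cells, from 5 cultures labelled WT and 5 labelled Cacnb3-/-, each with 3 libraries. The counts are raw: per the file header, the authors deposited whole read counts per gene from featureCounts 1.5.1 with an Ensembl 79 annotation of GRCm38 and no strand option, while the study's methods name GRCm39. The submitters' processing notes name STAR 2.4, mm10 and DESeq2. Library sets follow the library names, since the treatment labels of ctrl and 0p5h libraries conflict with them.

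Symbols were matched for 38984 of 43629 identifiers. Genes were filtered with filterByExpr, normalized by TMM and tested with edgeR 4.0.16 (limma 3.58.1, R 4.3.3) by the quasi-likelihood test with Benjamini-Hochberg adjustment over all genes tested. An adjusted p under 0.05 passed, and with a fold of at least 2 it was called. The test script was tested on simulated data. DESeq2 1.42.0, DESeq2 size factors in edgeR, no count filter, no fold minimum, a GC correction (lowess span 0.3), all 30 libraries in one fit, each culture left out, and the culture block with and without the GC correction were alternatives, as was a score pseudocount of 2 in place of 0.5. Total counts of 8237393 to 32164225 limit genes with few reads.

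Libraries with the same culture number deviated together. Over 13755 genes the correlation of their deviations from the group means was above 0.1 in 29 of 30 pairs (median 0.609). The exception, 0.0746, was between ctrl and 24h of Cacnb3-/- p974s843, so the block was used for each comparison of sets other than 24h against ctrl in Cacnb3-/- and its interaction. The pairing comes from the numbers in the library names.

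The 40 genes and the other lists were chosen with earlier results of these data known. Named in the text are the 40 genes (with full values for those with the largest level or change in each role), Cacnb3, each tested inhibitor of cyclin-dependent kinases, and from each other list up to 5 called genes or, where none was called, up to 2 genes with the lowest p of a comparison described. Cdkn1a and Tk1 were set beside each other after their values were seen.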

Additional observations from a re-analysis of the deposited data

Results flagged for a closer look

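In each of the 6 groups of 5 cultures, the highest and lowest value was held against Dixon's critical value for 10 cell cycle genes and for the score over the 40 genes. Of 66 groups tested, 3 held a value that stood apart, and chance marks about 1 in 20 groups. Mcm6 was at 108 CPM in the WT ctrl library of p974s846, with the others at 67.0 to 75.3 CPM. It was also high in the 0p5h library of the same culture, at 103 CPM, with the others at 74.0 to 78.4 CPM. Tyms, thymidylate synthase, was at 19.5 CPM in the WT 24h library of p974s855, with the others at 9.39 to 11.6 CPM. What sets these cultures apart was not tested.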

How the results depend on the processing

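Of the counts of called members, the medians over members and the scores, 447 values under an alternative stayed with the reported value and 14 moved. A median stayed when it shifted by less than the mean SD of the score within groups, where those SDs ran from 0.14 to 0.21. Several reported medians are smaller than that, so the tally says little about how stable they are. A group mean of the score stayed when it shifted by less than the SD of its group. Leaving out 1 of 5 cultures cannot shift it by more, so those values stayed by rule. In the 24h libraries, the comparison of genotypes called 0 members, against 1 with all 30 libraries in one fit. When 1 culture was left out it called 0 to 3, with 3 without Cacnb3-/- p974s865. Over all genes, calls also rose with all 30 libraries in one fit, as given below. The share of all genes called without 1 culture is not given, so these counts do not set the members apart. For 24h against 0p5h in WT, 1 member (Tk1) was called with the replicate block. The same number came with the block in DESeq2 and with the sequencing lane as a covariate, both chosen after seeing the data, as were the blocked fits without 1 culture. With the block and the GC trend removed the count was 0, with Tk1 at 0.97 on the log2 scale. In Cacnb3-/-, 1 member (Tk1) was counted without a fold minimum from ctrl to 0p5h and from 0p5h to 24h. With the 2-fold minimum kept, leaving 1 culture out of the former gave 0 to 1, with 1 without p974s852. With a pseudocount of 2 the mean score was 2.85, 2.84 and 2.95 in WT ctrl, 0p5h and 24h libraries and 2.82, 2.82 and 2.83 in Cacnb3-/-. The direction of Mcm4 between genotypes at 24h turned to -0.0023 with the GC trend removed, a value near 0 (SE 0.11). Among single genes, 2292 values stayed, 373 passed only under the alternative and 15 no longer passed, of which 11 were Tk1 in Cacnb3-/- and 4 Cd14. Tk1 missed the threshold with all 30 libraries in one fit (adjusted p = 0.380 and 0.109, edgeR) and, from 0p5h to 24h, with the lane (0.0672). The causes of these changes were not tested.

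Over all genes the counts called differed by tool and pairing. Without the block, edgeR called 0 genes between genotypes in ctrl, 0p5h, 24h and summed libraries and DESeq2 146, 84, 606 and 250, while edgeR called 376 at 24h without the count filter and 615 with all 30 libraries in one fit. For 0p5h against ctrl, edgeR called 23 genes in WT and 37 in Cacnb3-/-, 76 and 82 with the block, and DESeq2 51 and 56. For 24h against 0p5h it called 82 and 84, with the block 228 and 367, and DESeq2 148 and 203. For 24h against ctrl in WT it called 2, with the block 122, and DESeq2 30. For 24h against ctrl in Cacnb3-/-, where the pairing was not established (8 of 10 libraries correlated best with their own number), edgeR called 0 genes without and 138 with the block, and DESeq2 48, with 0 members called in each. The interaction of the same sets gave 16 genes with the block and that of 24h against 0p5h 1, again with 0 members. Removing the GC trend in the blocked fit changed how many members passed between 24h and 0p5h, with 10 in place of 6 for WT cultures and 3 in place of 5 for Cacnb3-/- cultures. The block changed no other call of a member than those given in the report.

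Depth limits the genes of mitosis most. In 14 of the 40 genes a library had under 10 reads, and Ccnb1 was not tested in most comparisons.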
